A study of Homo sapiens with 6 samples.

Results

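The genes described here encode proteins of the synaptic vesicle and of the active zone, the patch of presynaptic membrane where vesicles release transmitter. A list of 49 gene symbols was set by function, and each was given the probe set that the platform annotation assigns to it. Of these, 48 were measured, among 17687 genes in all, and each of the 48 had a single probe set. RIMS3 had no named probe set and is not analysed here. The cells were SH-SY5Y, an established neuroblastoma line from the human sympathetic lineage, which becomes more neuron-like when given retinoic acid (atRA). The group labelled 15EN and the vehicle control group (VC) had 3 arrays each, and replicates 1, 2 and 3 of either group were titled as passages 33, 34 and 35, although every description gives passage 33. The labels do not expand 15EN, and the series title names eurycomanone, from Eurycoma longifolia root, as the compound. All 6 samples carry the same treatment text, atRA over 96 h with 15 µM of a bioactive compound, so the vehicle is known only from the VC label. All cells come from 1 tumour line, and the labels name no separate cultures beyond the passage. The p-values therefore reflect the spread among these arrays alone, which may be technical.

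A vesicle is first filled with transmitter by a transporter in its membrane and held in a pool by synapsins. It is then docked and primed at the active zone by scaffolds such as Bassoon, Piccolo and RIM with the MUNC13 proteins. Calcium binding to synaptotagmin lets SNARE proteins of vesicle and plasma membrane fuse the bilayers, NSF and its SNAP adaptors take the SNARE bundle apart, and clathrin, dynamin and synaptojanin return the membrane. The members were grouped by these steps into loading and vesicle pool (11 measured), docking and priming (9), fusion (23) and recycling (5).

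Values are the deposited log2 signals, 1 per probe set and array, and a difference is 15EN minus VC on that log2 scale. The level of one gene is not set against that of another, since probe sets differ in brightness. Array medians over genes lay between 7.60 and 7.72. The 90th percentile of 612 negative control probe sets (7.41 to 7.99 per array) serves to describe a gene as dim: 21 members lay above it on all 6 arrays, 20 on none and 7 on some. 15EN replicate 3 stood apart, with Pearson's r across all probe sets of 0.979 and 0.980 with the other 15EN arrays, which correlated with each other at 0.991. It lay nearer to VC, with r of 0.971 to 0.973 with the VC arrays, against 0.966 to 0.968 for the other 15EN arrays. Each member result that 15EN replicate 3 decides is given without it as well. For other genes of the vesicle cycle, the counts of calls are given without it. Of markers for sympathetic neuroblasts, 9 of 14 measured were above the 90th percentile on all 6 arrays, whereas TH, CHGA and NEFL were above it on none. In that list 0 rose and 7 of 14 fell, including CHGA, which was dim on all 6 arrays. Over all genes tested, 12.3% were called higher and 9.09% lower (21.4% in either direction). The log2 of the summed signal of the 14 markers was 15.90 to 16.16 in 15EN and 16.86 to 17.23 in VC. Of 8 markers of substrate-adherent neuroblastoma cells 2 rose and 1 fell (37.5% called), with summed signals of 15.0 to 15.5 in 15EN and 16.0 in each VC array. That sum follows the brightest probe set, VIM, which fell (14.5 to 14.9 in 15EN, 15.6 to 15.8 in VC). The mean log2 signal of the list overlapped, at 9.95 to 10.57 in 15EN and 9.80 to 10.25 in VC. Of 6 fibroblast markers 0 rose and 1 fell (16.7% called), with summed signals of 14.4 to 14.8 in 15EN and 14.3 to 14.7 in VC. All 5 markers of Schwann cells and glia were dim on every array, with 0 called. What part these markers have in the differences below was not tested. In such bulk samples, fewer cells of a type and less RNA per cell cannot be told apart.

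Vesicle-cycle genes moved in both directions. Among the 48 members, 9 passed an adjusted p of 0.05 by limma: PCLO, SYT12 and STX1A rose, and SYT17, RIMBP2, SV2A, SV2C, SYT11 and BIN1 fell. The share called, 18.75%, is close to the 21.4% of all genes tested that passed, of which 12.3% were higher and 9.09% lower. The median difference over members was -0.01, against 0.01 over all genes. Differences were positive for 24 members and negative for 24, and their absolute size had a median of 0.45, against 0.34 over all genes. An unadjusted p under 0.05 was reached by 22 members (45.8%, against 32.2% of all genes). The 2 groups did not overlap for 22 members (45.8%, against 36.3% of all genes): 15EN lay above VC for 6 members (12.5%, against 19.7%) and below for 16 (33.3%, against 16.6%).

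With the replicate number, and so the passage, as a block, 5 members were higher and 7 lower, against backgrounds of 13.7% and 10.1%. The added ones were VAMP2 and SYT4 (higher) and SYN2 (lower). Without 15EN replicate 3, 8 members were higher and 8 lower, against backgrounds of 18.2% and 12.7% (30.9% in either direction), whereas leaving out 15EN replicate 2 or VC replicate 2 left 1 higher member, SYT12, against backgrounds of 8.32% and 7.36%. All directions are relative to the median gene. When arrays were scaled to their hybridization controls, which were dimmer in 15EN (10.3 to 10.6, against 11.2 to 11.4 in VC), 0.87 was added to every difference and the median gene came to 0.88, and the test is still against 0.

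**Figure D1:**
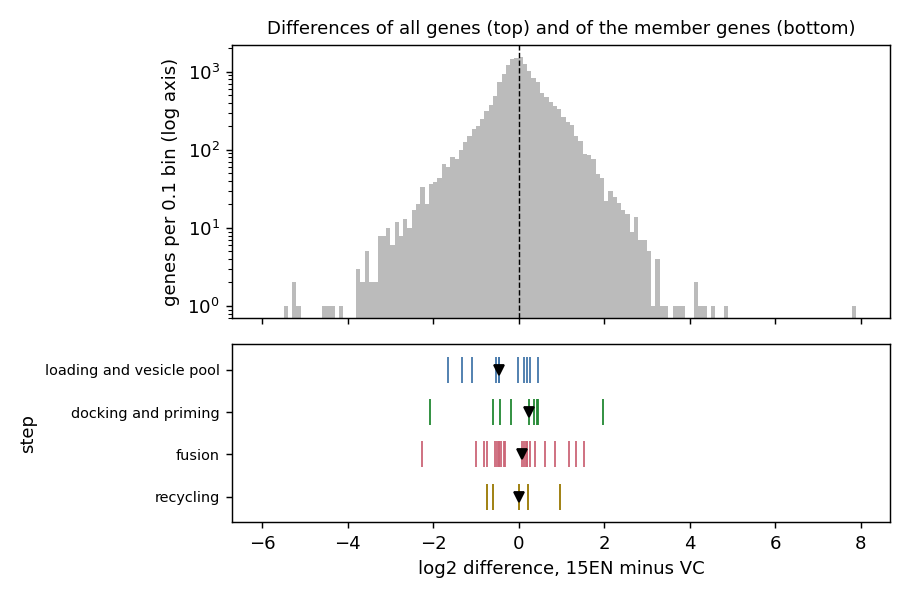
Distribution of log2 differences (15EN minus VC) over 17687 genes on a log count axis (top, dashed line at their median) and the same difference for each of the 48 members as a tick by step (bottom, triangle at the step median). Member ticks run from -2.27 to 1.97, within the range of all genes (-5.43 to 7.80).

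**Figure D2:**
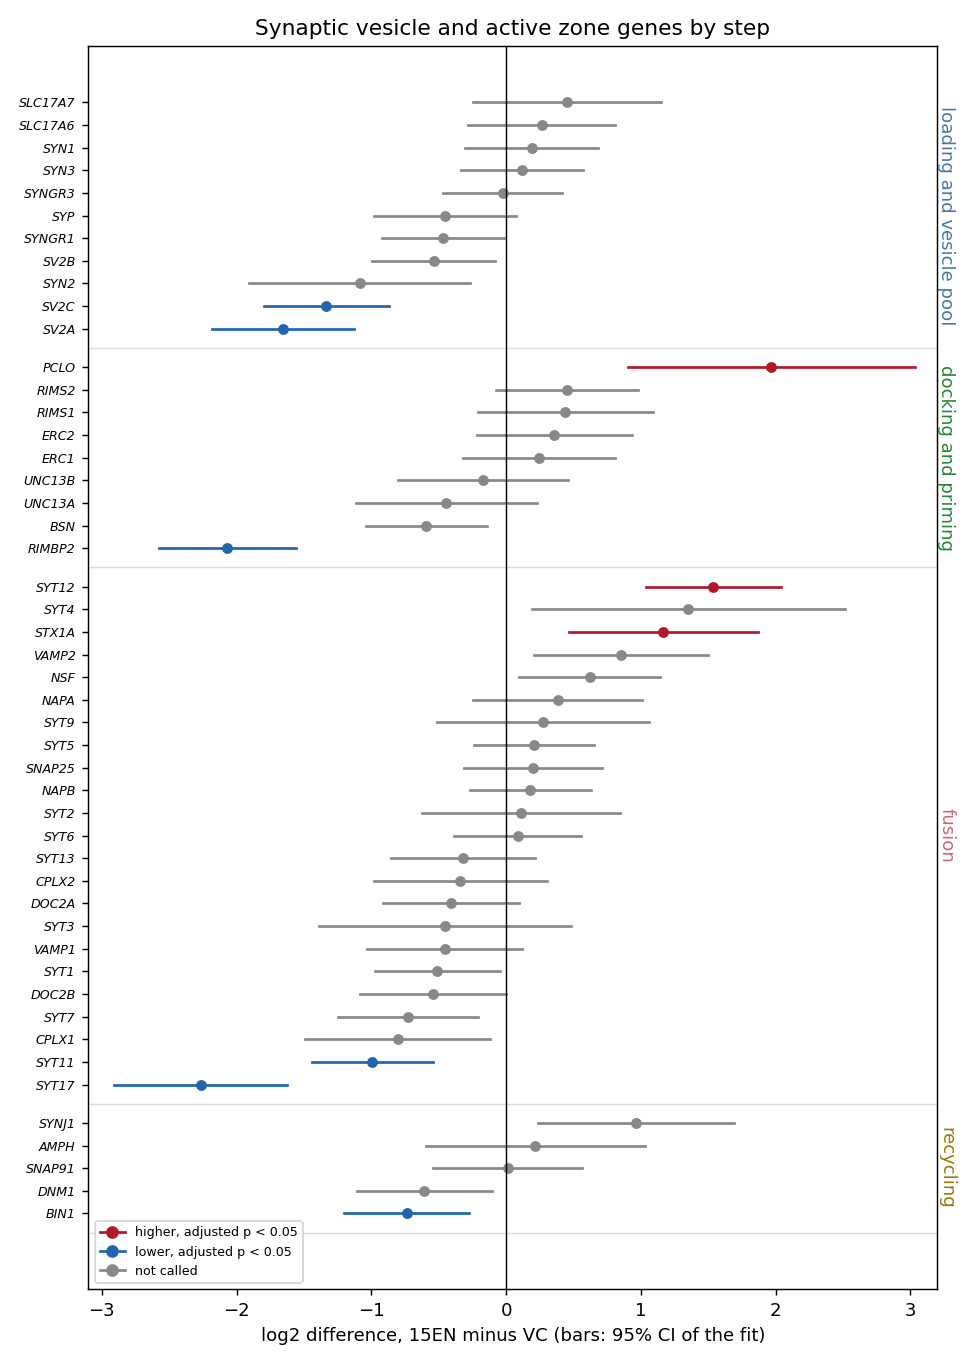
Fitted log2 difference, 15EN minus VC, of each member with its 95% confidence interval, grouped by step and ordered by size (red higher, blue lower, grey not called at adjusted p 0.05). Each step but loading and recycling holds called genes on both sides of 0, and the intervals of PCLO and SYT4 are the widest.

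The promoters of called members are shown because the genes that rose and those that fell can be set side by side at their start sites. RefSeq (GRCh38.p14) holds 60 promoters for 37 of the 48 measured members, 7 of the 9 called ones among them. In the 250 bases before the start, a GC box (GGGCGG on either strand, the site read by SP and KLF family factors) was present in 39 of the 60 (65.0%), against 42.6% of all 35116 promoters of that length. The 60 are not independent: 13 members have more than 1 promoter. Windows of SYNJ1 and of VAMP2 overlap, so a box can be counted more than once. The 4 printed below were selected from these 7 called members. They are given 5′ to 3′ with each GC box in capitals, overlapping boxes included.
STX1A, higher in 15EN, chr7:73719670-73719919, minus strand: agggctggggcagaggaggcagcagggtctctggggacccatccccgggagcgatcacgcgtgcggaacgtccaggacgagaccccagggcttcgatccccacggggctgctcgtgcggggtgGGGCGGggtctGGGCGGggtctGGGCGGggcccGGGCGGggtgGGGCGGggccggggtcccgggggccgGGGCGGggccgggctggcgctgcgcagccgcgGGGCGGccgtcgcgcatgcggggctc
PCLO, higher in 15EN, chr7:83162885-83163134, minus strand: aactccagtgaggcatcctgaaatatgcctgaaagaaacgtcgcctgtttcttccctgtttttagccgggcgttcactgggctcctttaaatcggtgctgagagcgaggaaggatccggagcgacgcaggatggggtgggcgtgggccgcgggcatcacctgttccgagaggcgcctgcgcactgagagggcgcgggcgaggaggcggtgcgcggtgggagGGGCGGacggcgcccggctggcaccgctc
BIN1, lower in 15EN, chr2:127107155-127107404, minus strand: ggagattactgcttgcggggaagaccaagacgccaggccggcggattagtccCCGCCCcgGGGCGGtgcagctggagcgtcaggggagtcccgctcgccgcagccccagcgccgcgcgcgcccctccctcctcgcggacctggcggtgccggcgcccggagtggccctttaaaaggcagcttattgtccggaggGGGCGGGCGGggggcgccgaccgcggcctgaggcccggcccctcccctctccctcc
SYT11, lower in 15EN, chr1:155859317-155859566, plus strand: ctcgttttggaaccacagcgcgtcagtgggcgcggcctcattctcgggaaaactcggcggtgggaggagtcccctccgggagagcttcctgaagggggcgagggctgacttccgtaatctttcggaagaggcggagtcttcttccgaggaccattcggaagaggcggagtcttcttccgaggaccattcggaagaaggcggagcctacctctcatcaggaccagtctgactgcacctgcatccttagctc

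STX1A holds 7 GC boxes, the most of any measured member's promoter, BIN1 holds 4, PCLO 1 and SYT11 0. At least 4 are found in 7.63% of all promoters and in 10 of the 60 promoters of measured members. STX1A rose and BIN1 fell, and whether the number of boxes goes with the direction of change was not tested. The G+C content of these windows was 80.8% for STX1A, 75.6% for BIN1, 65.6% for PCLO and 60.0% for SYT11. None of the 4 windows held, on either strand, a CRE (TGACGTCA, in 1.65% of all promoters), an AP-1 site (TGANTCA, 6.57%), an antioxidant response element core (TGACNNNGC, 10.9%, which can overlap an AP-1 site), an E-box (CACGTG, 6.34%), a CCAAT box (CCAAT, 32.0%) or a TATA box (TATAAA, 10.7%). Among the other called members with a promoter, SV2C (2 boxes) and 1 of the 3 promoters of RIMBP2 held a GC box and SV2A did not, and another RIMBP2 promoter held an AP-1 site and an antioxidant response element core. These matches describe letters only.

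At the loading step and in the vesicle pool, 2 of the 3 SV2 glycoprotein genes fell, SV2A and SV2C. SV2A, a vesicle membrane glycoprotein and the binding site of the drug levetiracetam, had log2 signals of 9.14, 9.78 and 9.82 in 15EN and 11.14, 11.30 and 11.25 in VC. Every 15EN array was below every VC array, a 3.15-fold lower signal (difference -1.66 ± 0.24, SE; adjusted p = 0.00115, limma). SV2C, its relative found in dopamine neurons of the basal ganglia, had 8.68, 8.91 and 8.86 in 15EN and 10.37, 9.99 and 10.10 in VC. The groups again did not overlap, and the signal was 2.52-fold lower (-1.33 ± 0.21, adjusted p = 0.00175). SV2B, dim on all arrays, had 3.89 to 4.07 in 15EN and 4.32 to 4.68 in VC, also without overlap, but its difference of -0.54 ± 0.21 missed the threshold (adjusted p = 0.094). The calls of SV2A and SV2C held with each array left out. After scaling to hybridization controls SV2A stayed called at -0.79, whereas SV2C (-0.47, adjusted p = 0.107) did not pass against 0 and SV2B came to 0.33, with the median gene at 0.88.

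The synapsins, which tether vesicles to each other and to actin, gave 0 calls among 3. SYN2 had 8.86, 8.86 and 8.16 in 15EN and 10.56, 9.53 and 9.05 in VC. The groups did not overlap, but the VC arrays were spread over more than a log2 unit (-1.09 ± 0.37, adjusted p = 0.0606). Within passages the SYN2 differences were -1.70, -0.67 and -0.89, and it passed with the replicate block (adjusted p = 0.0122) or without VC replicate 3 (0.036). SYN1 had 6.24, 6.61 and 5.999 in 15EN and 6.06, 6.16 and 6.05 in VC, dim and overlapping (0.19, 95% interval -0.30 to 0.68, adjusted p = 0.63). SYN3, also dim, differed by 0.12 (adjusted p = 0.757).

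Among the 4-span vesicle proteins, SYP (synaptophysin, the standard marker of synaptic vesicles) had 7.58, 7.496 and 6.90 in 15EN and 7.84, 7.82 and 7.67 in VC. All 15EN arrays were lower, 15EN replicate 3 most, at levels near the negative controls, and the difference of -0.45 (95% interval -0.98 to 0.07) was not called (adjusted p = 0.223). The synaptogyrins SYNGR1 (-0.47, adjusted p = 0.144) and SYNGR3 (-0.03, adjusted p = 0.952) were dim and not called. The vesicular glutamate transporters were dim too. SLC17A6 had 4.47, 4.27 and 4.34 in 15EN and 4.33, 4.35 and 3.61 in VC, differing by 0.26 (-0.29 to 0.81, adjusted p = 0.532), and SLC17A7 differed by 0.45 (adjusted p = 0.373). The step as a whole had 0 higher and 2 lower of 11 (18.2% called, against 21.4% of all genes) and a median of -0.45. For 6 members (54.5%, against 16.6% of all genes) 15EN lay entirely below VC, and for 0 entirely above (19.7% of all genes). At docking and priming 15EN lay entirely below VC for 2 of 9 members and above for 1. At fusion these counts were 6 and 5 of 23, and at recycling 2 and 0 of 5. Among 14 further loading genes 15EN lay entirely below VC for 4 (28.6%), and their median difference was -0.004.

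At the docking and priming step, genes of neighbouring scaffold proteins went opposite ways. RIMBP2, whose protein links RIM to presynaptic calcium channels, had 10.003, 9.40 and 9.94 in 15EN and 11.97, 11.75 and 11.83 in VC. That is a 4.19-fold lower signal without overlap (-2.07 ± 0.23, adjusted p = 0.000355), with adjusted p from 9.66e-05 to 0.00364 when an array was left out and -1.20 (adjusted p = 0.00185) after scaling to hybridization controls. PCLO, which encodes the giant scaffold Piccolo, had 10.24, 9.83 and 8.004 in 15EN and 7.49, 7.07 and 7.60 in VC. All 15EN arrays were above VC, but replicates 1 and 2 by far more than replicate 3: the same-passage differences were 2.75, 2.75 and 0.41. The difference was 1.97 ± 0.48 (adjusted p = 0.0153). Without 15EN replicate 3 it was 2.64 ± 0.24 (adjusted p = 3.46e-05), and the call was lost without 15EN replicate 1 (adjusted p = 0.0537), 15EN replicate 2 (0.0642) or VC replicate 2 (0.0726). PCLO was dim in VC, so the size of its rise is uncertain.

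BSN, which encodes Bassoon, the partner scaffold of Piccolo, had 7.22, 7.002 and 6.90 in 15EN and 7.70, 7.54 and 7.66 in VC. It was dim throughout and lower on every 15EN array, but did not pass (-0.59, 95% interval -1.04 to -0.14, adjusted p = 0.0641). UNC13A, the MUNC13 factor that primes vesicles at most brain synapses, had 5.16, 4.67 and 5.68 in 15EN and 6.08, 5.45 and 5.31 in VC, overlapping and dim (-0.44, -1.12 to 0.23, adjusted p = 0.369). Its relative UNC13B differed by -0.17 (adjusted p = 0.753). RIMS1, a RIM scaffold that was dim on all arrays, had 6.15, 6.41 and 6.63 in 15EN and 5.44, 6.56 and 5.86 in VC (0.44, -0.21 to 1.09, adjusted p = 0.353). RIMS2, dim on all but 1 15EN array, differed by 0.45 (adjusted p = 0.226), and by 0.67 ± 0.20 without 15EN replicate 3, where it passed (adjusted p = 0.0241). The ELKS scaffold genes ERC1 (0.24, adjusted p = 0.577) and ERC2 (dim, 0.36, adjusted p = 0.398) were not called. The step had 1 higher and 1 lower of 9 (22.2% called, against 21.4% of all genes) and a median of 0.24. In 28 further docking genes the median was -0.28, with 22 differences negative and 6 positive. Of these, 2 were called higher and 4 lower (21.4% called). For 10 of them (35.7%, against 16.6% of all genes) 15EN lay entirely below VC, and for 3 (10.7%, against 19.7%) above.

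**Figure D3:**
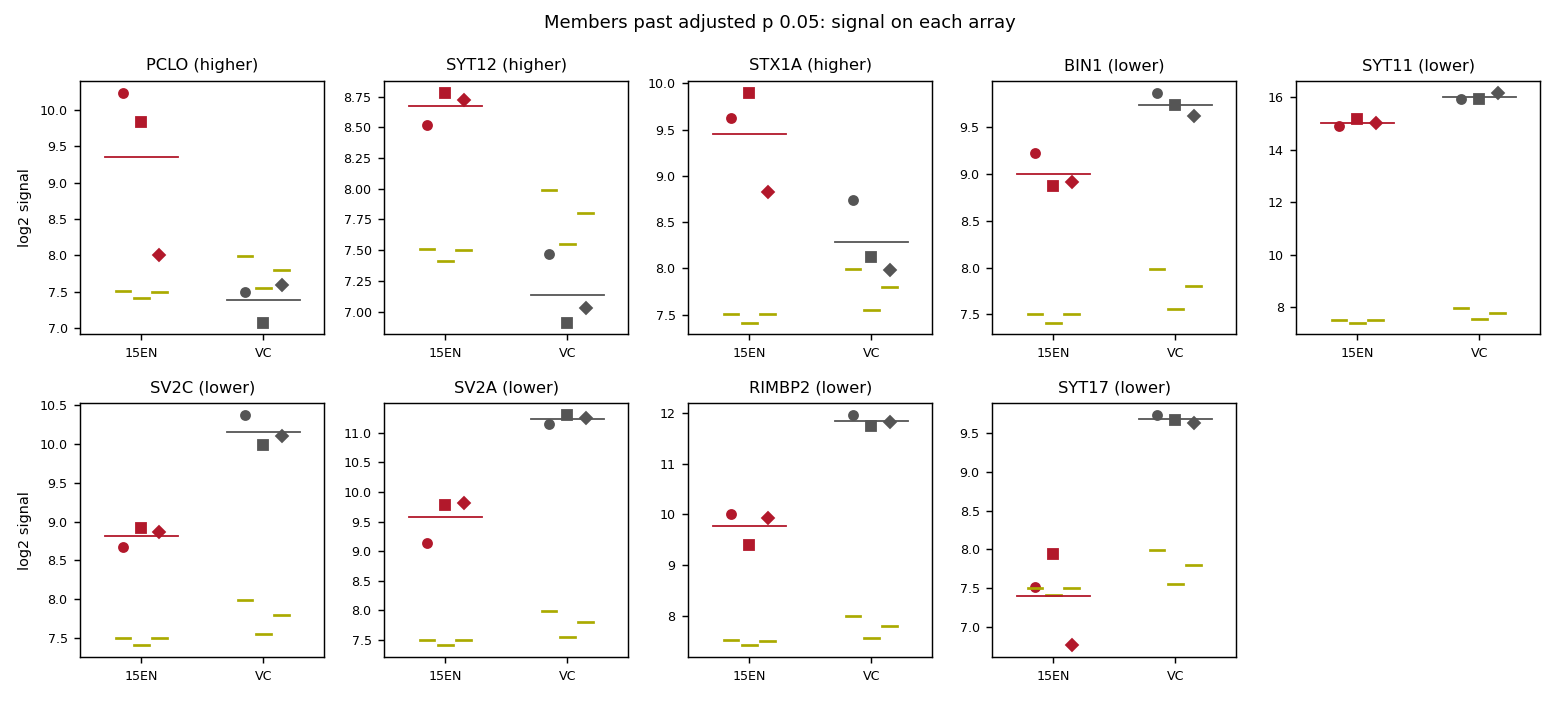
Log2 signal of the 9 called members on each array (15EN red, VC grey; circle, square and diamond are replicates 1, 2 and 3; long lines are group means), with the 90th percentile of the negative controls of that array as a short yellow bar; each panel has its own axis. Groups do not overlap in any panel, 15EN replicate 3 lies nearest to VC for PCLO (8.004) and STX1A (8.82), and the VC values of PCLO and SYT12 lie below the yellow bars.

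At the fusion step, 1 of the 3 SNAREs of the release complex was called. STX1A, the syntaxin of the presynaptic plasma membrane, had 9.62, 9.90 and 8.82 in 15EN and 8.74, 8.12 and 7.98 in VC. The groups did not overlap, though 15EN replicate 3 and VC replicate 1 lay close together (1.17 ± 0.32, 2.25-fold, adjusted p = 0.024). Without 15EN replicate 3 the difference was 1.48 ± 0.26 (adjusted p = 0.00153). The call was lost without 15EN replicate 1 (adjusted p = 0.0782), 15EN replicate 2 (0.0938), VC replicate 2 (0.0994) or VC replicate 3 (0.106).

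VAMP2, the main vesicle SNARE, had 9.45, 10.61 and 9.83 in 15EN and 8.96, 9.12 and 9.26 in VC. All 15EN arrays were above VC, with replicate 2 highest (0.85 ± 0.29, adjusted p = 0.0624). It passed with the replicate block (adjusted p = 0.0363), without 15EN replicate 1 (0.0299) and without 15EN replicate 3 (0.0427). SNAP25, which pairs with syntaxin at the plasma membrane, had 9.78, 9.85 and 10.20 in 15EN and 9.45, 9.80 and 9.99 in VC. These overlapped, and the difference of 0.20 had an interval of -0.31 to 0.71 (adjusted p = 0.626). VAMP1, the vesicle SNARE of spinal cord and motor nerve, had 8.92 to 9.61 in 15EN and 9.44 to 10.04 in VC (-0.45, adjusted p = 0.267). The complexins, small proteins that bind the assembled SNAREs, were dim, with CPLX1 at -0.80 (adjusted p = 0.0963) and CPLX2 at -0.34 (adjusted p = 0.484).

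NSF, the ATPase that takes SNARE bundles apart, had 11.55, 11.37 and 10.97 in 15EN and 10.48, 10.60 and 10.96 in VC. 15EN replicate 3 and VC replicate 3 were level, and the difference of 0.62 ± 0.24 (0.09 to 1.14) was not called (adjusted p = 0.0942). Its adaptor genes NAPA (0.38, adjusted p = 0.409) and NAPB (0.18, adjusted p = 0.615) were not called either. Without 15EN replicate 3, NSF (0.78 ± 0.22, adjusted p = 0.0203) and NAPA (0.68 ± 0.22, adjusted p = 0.0367) passed.

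**Figure D4:**
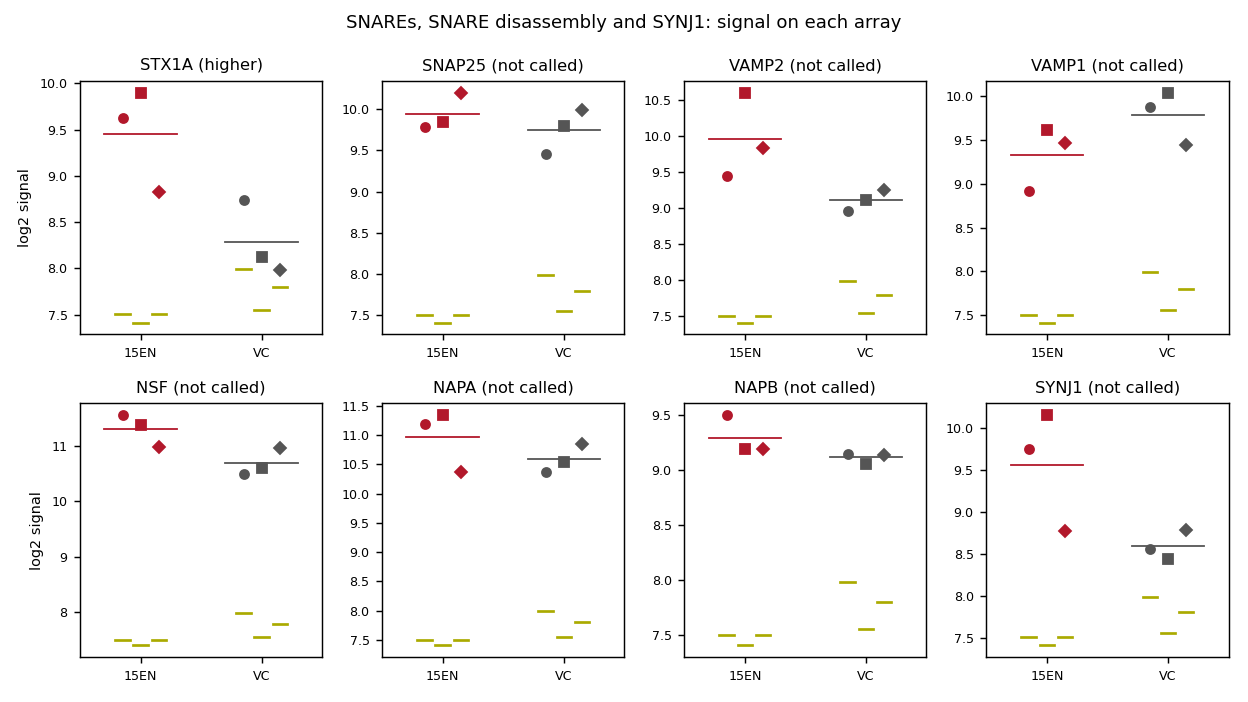
Log2 signal on each array for SNAREs, SNARE disassembly factors and SYNJ1, drawn as in the plot of called members (15EN red, VC grey, diamonds replicate 3, yellow bars the negative control percentile; each panel has its own axis). For STX1A, NSF, NAPA and SYNJ1, 15EN replicate 3 (8.82, 10.97, 10.38 and 8.77) is the lowest 15EN array.

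Synaptotagmins carry paired C2 domains, and only some of them bind calcium. Of 12 measured, 1 rose and 2 fell (25.0% called, against 21.4% of all genes). The 3 called genes encode forms that do not act as calcium sensors for fast release. SYT17 had 7.51, 7.94 and 6.77 in 15EN and 9.73, 9.67 and 9.62 in VC. This was the largest fall among the members, 4.82-fold (-2.27 ± 0.29, adjusted p = 0.000628). However, 15EN replicate 3 fell below the negative control percentile and replicate 1 lay just above it (7.512 against 7.506), so the size of the fall is uncertain. SYT17 differs from most of the family in lacking a transmembrane segment. SYT11, a form with weak or no calcium binding that restrains membrane retrieval in rodent neurons, had 14.93, 15.17 and 15.02 in 15EN and 15.96, 15.96 and 16.19 in VC. It was bright on all arrays and 1.99-fold lower (-0.99 ± 0.20, adjusted p = 0.00646), called with any array left out, but at -0.13 (adjusted p = 0.646) after scaling to hybridization controls. SYT12, which lacks calcium-binding residues, had 8.52, 8.78 and 8.72 in 15EN and 7.47, 6.91 and 7.03 in VC. It was dim in VC and above the percentile on every 15EN array (1.54 ± 0.23, adjusted p = 0.00127), called with any array left out, and as for PCLO the size of its rise is uncertain.

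SYT1, the calcium sensor of fast synchronous release, had 11.17, 11.52 and 11.54 in 15EN and 11.88, 12.00 and 11.87 in VC. Every 15EN array was lower, with same-passage differences of -0.71, -0.49 and -0.33, but the difference of -0.51 ± 0.21 (95% interval -0.97 to -0.05) was not called (adjusted p = 0.116), although it passed with array weights (adjusted p = 0.0411) and after loess against brightness (0.0397). The other fast sensors, SYT2 (dim, 0.11, adjusted p = 0.866) and SYT9 (0.27, adjusted p = 0.671), were not called. SYT7, a slower, high-affinity sensor, was dim, with 4.63, 5.30 and 4.93 in 15EN and 5.66, 5.52 and 5.86 in VC, and just missed the threshold (-0.73 ± 0.23, adjusted p = 0.0501), passing without 15EN replicate 2 (0.0364) or 3 (0.0464). SYT4, which depolarization induces in neurons, was dim on all but 1 15EN array and scattered, with 5.63, 8.22 and 7.23 in 15EN and 5.28, 5.76 and 5.97 in VC. Only replicates 2 and 3 were clear of VC (1.35 ± 0.52, adjusted p = 0.0982), and it passed with the replicate block (adjusted p = 0.0185) or without 15EN replicate 1 (0.00496). SYT3, a calcium-binding form dim on all but 1 15EN array, had 6.07, 6.68 and 8.02 in 15EN and 7.08 to 7.65 in VC. It differed by -0.45 ± 0.42 (adjusted p = 0.528) with all arrays and by -1.002 ± 0.26 (adjusted p = 0.0123) without 15EN replicate 3. SYT5 (dim, 0.21), SYT6 (0.09) and SYT13 (dim, -0.32) were not called (adjusted p = 0.552, 0.841 and 0.417). Nor were DOC2A (-0.41, adjusted p = 0.258) and DOC2B (-0.54, adjusted p = 0.154), the soluble calcium sensors linked to spontaneous release, both dim. Fusion as a whole had 2 higher and 2 lower of 23 (17.4% called, against 21.4% of all genes), with a median of 0.09.

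At the recycling step 0 rose and 1 fell of 5 (20.0% called, against 21.4% of all genes). BIN1, an amphiphysin relative that bends membranes, had 9.22, 8.87 and 8.91 in 15EN and 9.87, 9.73 and 9.61 in VC. The groups did not overlap (-0.74 ± 0.21, 1.67-fold lower, adjusted p = 0.03). The call was lost without 15EN replicate 2 (adjusted p = 0.0958) or any VC array (0.11, 0.0989 and 0.0686 without replicates 1, 2 and 3), and after scaling to hybridization controls the difference was 0.13. DNM1, the dynamin that pinches vesicles off, had 12.13, 12.20 and 11.61 in 15EN and 12.60, 12.63 and 12.53 in VC. It was lower on every 15EN array (-0.61 ± 0.23, 95% interval -1.11 to -0.10) but not called (adjusted p = 0.0862), passing after quantile normalization (0.036) or loess against brightness (0.0219). SYNJ1, the phosphoinositide phosphatase of this step, had 9.75, 10.15 and 8.77 in 15EN and 8.55, 8.43 and 8.78 in VC. Replicates 1 and 2 were above VC and replicate 3 was within it (0.96 ± 0.33, adjusted p = 0.0613), and without 15EN replicate 3 the difference was 1.36 ± 0.22 (adjusted p = 0.00103). SNAP91, the neuronal clathrin assembly protein AP180, differed by 0.01 (95% interval -0.54 to 0.57, adjusted p = 0.981), and AMPH, dim, by 0.22 (adjusted p = 0.753). The step median was 0.01.

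**Figure D5:**
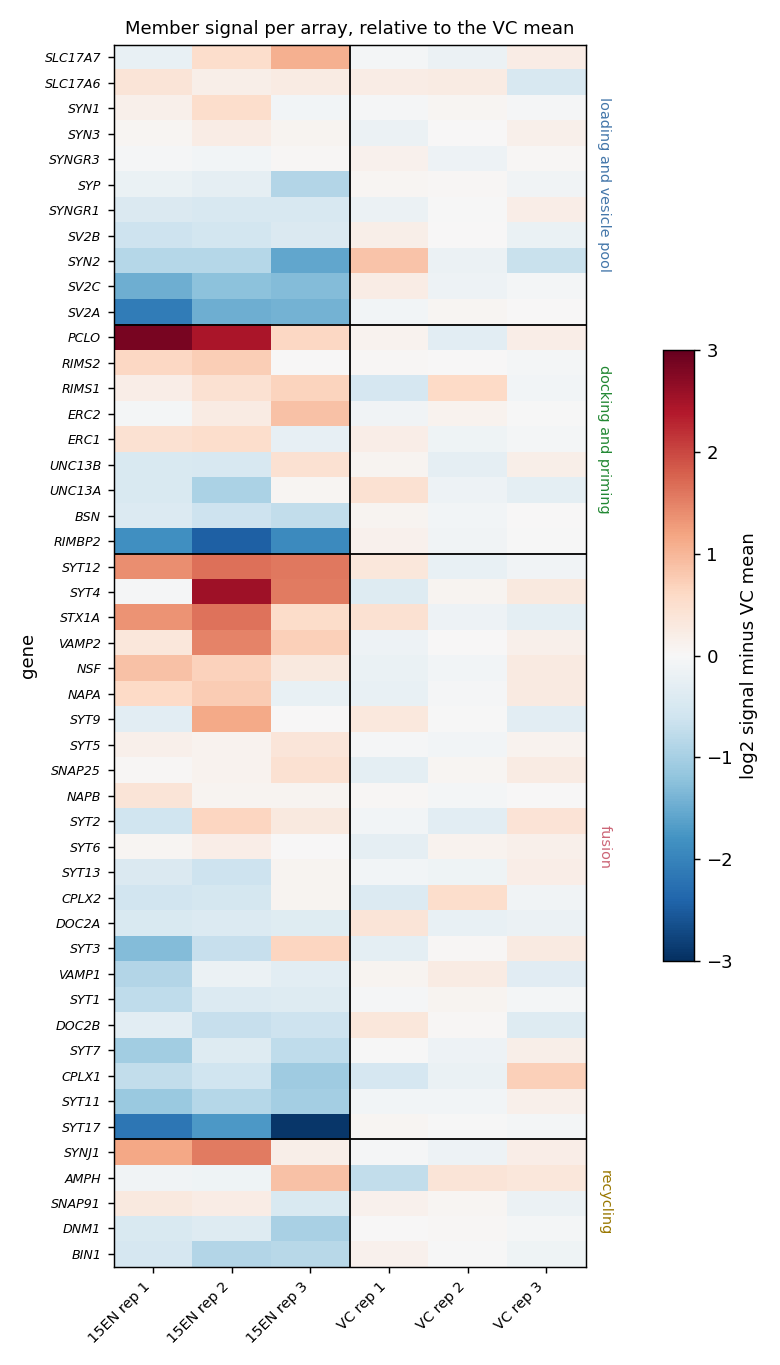
Log2 signal of each member on each array minus its VC mean (rows: genes by step, ordered by difference; columns: 15EN replicates left, VC replicates right; colour scale -3 to 3). The VC columns are near 0 apart from single cells such as SYN2, while the column of 15EN replicate 3 is paler than its neighbours for PCLO, STX1A, NSF and SYNJ1 and darker for SYT17.

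Same-passage differences were positive at all 3 passages for 11 members (22.9%, against 27.0% of all genes) and negative at all 3 for 18 (37.5%, against 24.7%).

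Of 95 further genes of the vesicle cycle, 87 were measured, and 7 rose and 11 fell. That share, 20.7%, is close to the background of 21.4%, and the median difference was -0.16. By step their medians were -0.004 at loading, -0.28 at docking, -0.05 at fusion and -0.004 at recycling. In the vesicle pool the zinc transporter gene SLC30A3 fell (-2.35 ± 0.23, adjusted p = 0.000226), as did SCAMP5, which was dim in both groups (-1.06 ± 0.22, adjusted p = 0.00679). SYNGR2, the synaptogyrin of non-neuronal cells, rose (1.12 ± 0.29, adjusted p = 0.0212). At docking, RAB3A, the vesicle GTPase that binds RIM, fell (-1.16 ± 0.26, adjusted p = 0.01) and its relative RAB3B rose (1.14 ± 0.35, adjusted p = 0.0411). The adaptor gene APBA2 (-1.28 ± 0.28, adjusted p = 0.00917) and the liprin gene PPFIA4 (-0.98 ± 0.24, adjusted p = 0.0169) fell, and the liprin gene PPFIA1 rose (0.85 ± 0.22, adjusted p = 0.02). Of these, PPFIA1 was dim on all 6 arrays, RAB3A on all but 1 VC array, and PPFIA4 on all but 2 VC arrays. SLC30A3 was dim on 15EN replicate 3 (7.38), so the size of its fall is uncertain.

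At fusion, the syntaxin genes STX3 (1.73 ± 0.26, adjusted p = 0.00137) and STX2 (-1.78 ± 0.21, adjusted p = 0.000434) moved in opposite directions. SYT14 rose (0.66 ± 0.21, adjusted p = 0.047) and PRRT2, dim, fell (-0.79 ± 0.23, adjusted p = 0.0308). At recycling, the clathrin light chain gene CLTA (0.86 ± 0.22, adjusted p = 0.0212) and DNAJC6, auxilin (1.05 ± 0.27, adjusted p = 0.0188), rose. The AP-2 adaptor subunit genes AP2M1 (-0.82 ± 0.19, adjusted p = 0.0134) and AP2B1 (-0.74 ± 0.19, adjusted p = 0.0218) and PACSIN2 (-0.84 ± 0.21, adjusted p = 0.0172) fell. The calls of SLC30A3, SCAMP5, APBA2, STX2 and STX3 held with each array left out, and the other named genes each lost theirs without at least 1 array. With the replicate block 6 were higher and 13 lower, against backgrounds of 13.7% and 10.1% of all genes. SYT14 lost its call (adjusted p = 0.0561), and RAB27B (-1.07, 0.00659), dim on all arrays, and EPS15 (-0.85, 0.0323) gained one, both named after their values were seen. Without 15EN replicates 1, 2 and 3 in turn the counts were 4, 3 and 8 higher and 6, 6 and 18 lower. The backgrounds were then 8.47%, 8.32% and 18.2% higher and 6.44%, 6.86% and 12.7% lower. Without VC replicates 1, 2 and 3 they were 1, 2 and 4 higher and 8, 5 and 5 lower.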

How the data were processed

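The deposited log2 signals come from the authors' 1-colour Affymetrix whole-transcript arrays (100 ng of total RNA) and were made with the Transcriptome Analysis Console, per the submitters' processing notes. The log2 scale was read from the values. For its version, summarization, normalization and build, the sources used here give nothing. Of 21448 gene probe sets 17709 carry 1 symbol, 0 several and 3739 none, and the highest-mean probe set of a gene was kept (22 set aside), with no filter on dim ones.

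The 15EN minus VC difference was tested per gene by limma (version 3.58.1, R 4.3.3, group as the only term, two-sided, Benjamini-Hochberg over 17687 genes). The procedure was tested on simulated data. Same-numbered arrays share a passage per the labels, and deviated together from their group means (r across genes 0.229, 0.162 and 0.133), so calls with the number as a block are printed beside those without it where they differ. All measured members are named. Called members and 12 fixed ones are given per array, SYN2, SYT3, SYT4, SYT7 and SYNJ1 were added after their values were seen, and further pathway genes are named by smallest p (up to 3 per step and direction). Members and lists were chosen with earlier results of these data known. Alternatives were the replicate block, quantile normalization, scaling to 4 hybridization controls, loess against brightness, leaving out the dimmest tercile, the mean of probe sets, array weights, a trended robust prior and leaving out each array. The number of arrays limits the precision.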

Additional observations from a re-analysis of the deposited data

How the results depend on the processing

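Scaling to hybridization controls moved most. Of all genes tested it called 12587, or 71.2% (12150 higher and 437 lower, 96.5% higher against 57.5%), over members 25 higher and 3 lower, and of the other pathway genes, higher were 51 and lower 2. By step it gave 5 higher and 1 lower at loading, and 5 higher at docking, where RIMBP2 stayed lower. At fusion it gave 12 higher and 1 lower, and at recycling 3 higher and 0 lower. The medians under it were 0.86 over members, 0.88 over all genes, 0.42 at loading, 1.11 at docking, 0.95 at fusion and 0.88 at recycling. SYNGR3 came to 0.84 (adjusted p = 0.0095) and BIN1 to 0.13 (adjusted p = 0.598), both with the sign turned. With the replicate block, 5 members were higher, 4 of them at fusion, and the block ended no member's call. Without the dimmest tercile 38 members were left, with 5 higher, 2 lower at docking, 1 higher at recycling and a recycling median of -0.30, against backgrounds of 19.5% higher and 14.3% lower. It added SYN2 and BSN (lower) and VAMP2 and SYNJ1 (higher), and ended no call among the members left. Array weights raised calls over all genes to 30.5% (17.9% higher and 12.7% lower) and gave 7 members higher and 10 lower (SV2B, RIMS2, VAMP2, SYT1, SYT3, SYT7, NSF and SYNJ1 added), 18 other pathway genes lower, 2 higher at docking, 4 higher and 5 lower at fusion, 1 higher at recycling and a loading median of -0.31. Quantile normalization (21.6% of all genes called) gave 2 lower at recycling and added SYN2 and DNM1, and loess against brightness (21.5%) added those and SYT1, with 2 lower at recycling, a median over members of -0.11 (-0.105 before rounding) and 4 other pathway genes higher. The share of calls that were higher was 53.3% under quantile normalization and 49.1% under loess. The cause of these shifts was not tested, except that the scaling adds 1 constant to all genes and the filter tests fewer genes.

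Leaving out 1 array at a time gave 2271 to 5467 genes called (1301 to 3227 higher, 970 to 2240 lower), 1 to 8 members higher and 5 to 8 lower (12.8% to 30.9% of all genes called), and 1 to 8 other pathway genes higher and 5 to 18 lower. Higher counts were 0 to 0 at loading, 0 to 2 at docking, 1 to 5 at fusion and 0 to 1 at recycling. Lower counts were 2 to 3, 1 to 1, 2 to 4 and 0 to 1 in the same order. Medians were -0.12 to -0.0195 for the median difference over members, -0.0450 to 0.0364 for the median difference over all genes, -0.49 to -0.24 at loading, 0.10 to 0.22 at docking, -0.16 to 0.12 at fusion and -0.15 to 0.04 at recycling. The lowest all-gene counts came without VC replicate 2 and the highest without 15EN replicate 3. The mean of probe sets and a trended robust prior changed no member's call. The 20 members dim on every array are the least certain.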
